A study of Homo sapiens with 6 samples.

Results

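The 10 amino acid transporters described here are SLC1A4, SLC1A5, SLC6A9, SLC7A1, SLC7A5, SLC7A6, SLC38A1, SLC38A2, SLC38A4 and SLC43A1. They were taken by gene symbol from the 18404 genes measured, and all 10 were measured. For each gene the probe set was chosen by its mean level, as the highest over the 6 arrays among those naming that gene alone; the symbols were listed with earlier results of the same arrays known. Of the arrays, 3 came from MEC-1 cells carrying a lentiviral short hairpin RNA (shRNA) against UGT2B17 and 3 from MEC-1 cells carrying a scrambled shRNA. MEC-1 is an established line of B cells from a patient with chronic lymphocytic leukemia, and UGT2B17 is an enzyme that attaches glucuronic acid to steroids and other small molecules. All cells were grown in the same serum-containing medium without phenol red or antibiotics, and all received a lentivirus. The labels call the replicates independent and say no more of them. They do not say how many hairpins were used, how long after transduction RNA was taken, or whether the replicates were separate cultures. What follows from less UGT2B17, what the hairpin does elsewhere and how the cultures differed therefore cannot be told apart, and the p-values cover only array-to-array spread, which may be technical.

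Amino acid transporters of the solute carrier (SLC) families move amino acids across the plasma membrane, either together with sodium or in exchange for another amino acid. Leucine and other large neutral amino acids enter through the sodium-independent exchangers of system L, glutamine and small neutral amino acids through the exchangers of the SLC1 family and the sodium-coupled carriers of the SLC38 family, and arginine and lysine through the cationic carriers of the SLC7 family. Dividing lymphocytes and leukemic cells raise several of these carriers, and the imported amino acids feed protein synthesis and are sensed by the kinases mTORC1 and GCN2. Many of the genes are known targets of the stress transcription factor ATF4, which binds C/EBP-ATF response elements, and of MYC, which binds E-boxes.

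Levels are given as log2 of the RMA signal, a fluorescence measure after background correction and quantile normalisation, so that a difference of 1 is a 2-fold change. UGT2B17 itself was lower on the probe set that names it alone, at 3.19, 3.27 and 3.17 on the knockdown arrays against 3.95, 3.69 and 3.91 on the scrambled arrays, a log2 fold change of −0.64 ± 0.08 (SE; limma, adjusted p = 0.00654). The mean level of that probe set was at percentile 8.02 of all probe sets, and whether it lay above background cannot be read from the deposited values. Scrambled replicate 3 stood apart, with a root mean square deviation of 0.166 from its group mean, where the other 5 arrays lay between 0.117 and 0.142. The measured B cell markers, 5 of 8, had group means from 9.63 to 12.37 on knockdown arrays and from 9.57 to 12.29 on scrambled arrays. Their summed level was 55.45 to 55.46 on knockdown arrays against 55.34 to 55.56 on scrambled arrays. The 8 T and NK cell markers summed to 46.7 to 47.7 against 46.6 to 47.1, and the 6 epithelial and fibroblast markers to 37.5 to 37.8 against 37.4 to 38.4. The 5 measured monocyte markers summed to 25.2 to 25.5 on knockdown arrays against 25.7 to 26.5 on scrambled arrays, which do not overlap. The lower sum was not shared by all 5. The log2 fold changes of CD14, LYZ and CSF1R were −0.19, −0.10 and −0.01, and that of CD163 was 0.09. None of the 5 passed in limma with all arrays. ITGAM gave the largest difference of the 5, at −0.60 (limma, adjusted p = 0.0659). Without scrambled replicate 3 it was −0.79 and passed (adjusted p = 0.00248), as did EPCAM of the epithelial list at −0.47 (adjusted p = 0.0411), which read −0.36 with all arrays (adjusted p = 0.140). The part of these monocyte-list differences in the results for transporters was not tested.

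Of the 10 transporters, SLC38A4 fell, SLC43A1 rose and 8 did not pass the test (limma, Benjamini-Hochberg adjusted p under 0.05 over all 18404 genes). Over all genes 3.61% passed, 1.92% as higher and 1.69% as lower in the knockdown. The transporters were listed with earlier results of these arrays known, so nothing is read from their count. It was 1 without each of the knockdown replicates and without scrambled replicate 1 or 2, and 3 without scrambled replicate 3, where 4.12% of all genes passed, 2.12% as higher. The log2 fold changes of the 10 ran from −1.24 to 0.50, with 7 above 0 and a median of 0.13, beside a median of −0.002 over all genes. Their median absolute log2 fold change was 0.17, beside 0.09 over all genes. The choice of the list bears on these medians and on the separation that follows, so nothing is read from them either. The knockdown arrays did not overlap the scrambled arrays for 5 of the 10, 4 higher and 1 lower, where 24.8% of all genes were so separated, 11.8% higher and 13.1% lower. Without knockdown replicate 3 it was 8 of the 10, the most of any setting, where 33% of all genes were separated. Without each of the other arrays it was 5 to 7, beside 32.7% to 38.4% of all genes. With the arrays centred on their median it was 2, beside 24.5% of all genes. A gene whose groups do not overlap has a two-sided exact permutation p of 0.1, the smallest that 3 against 3 arrays allow.

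**Figure D1:**
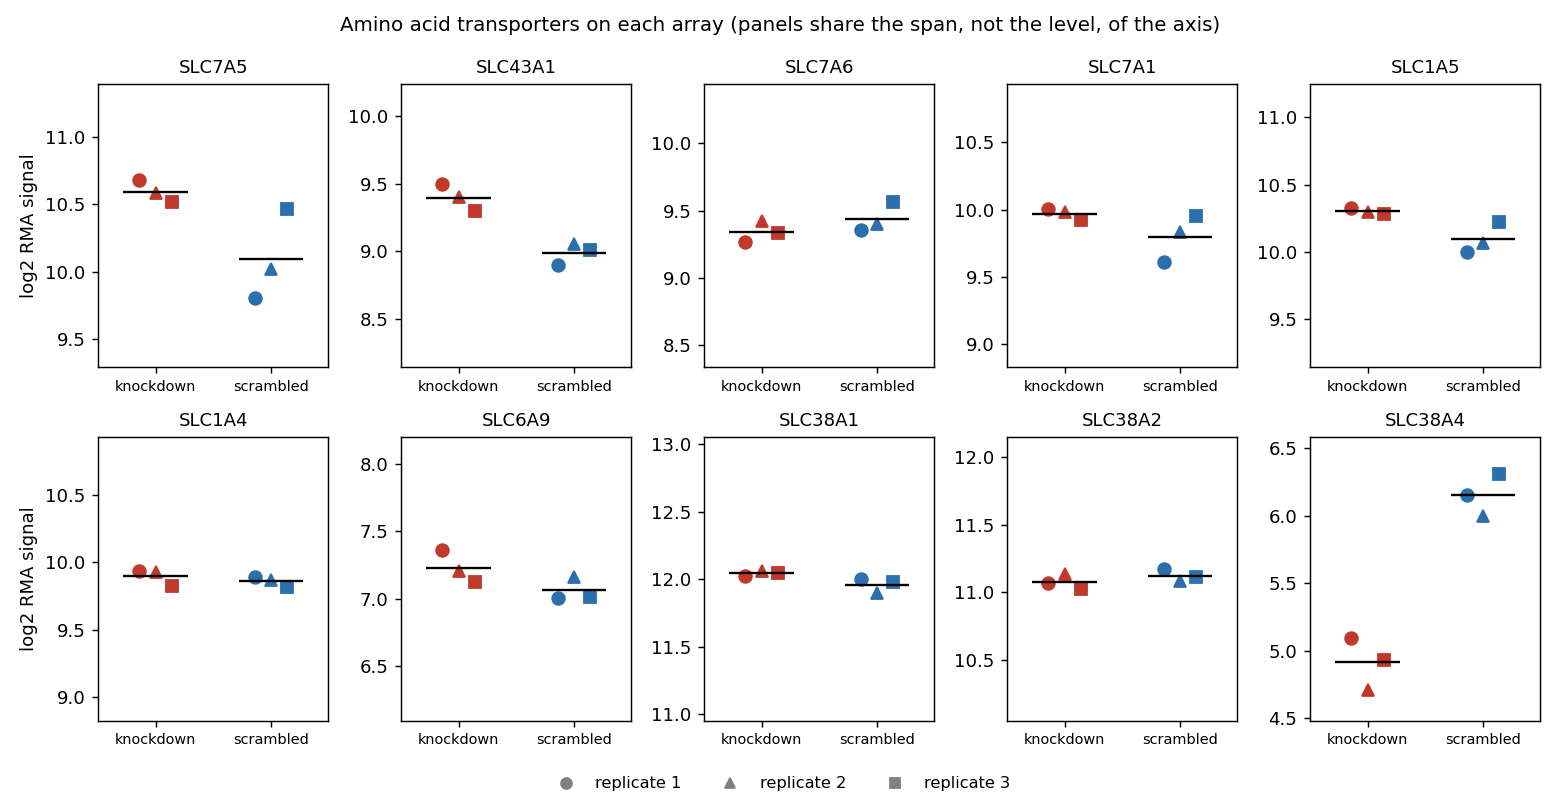
Level of each of the 10 transporters on each array (log2 RMA signal, 3 knockdown arrays at left in red, 3 scrambled arrays at right in blue, black line the group mean, marker shape the replicate number). Every panel spans the same number of log2 units around its own centre. SLC38A4 shows the widest separation, at 4.91 in knockdown cells against 6.15 in scrambled cells, and scrambled replicate 3 lies next to the knockdown arrays for SLC7A5.

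**Figure D2:**
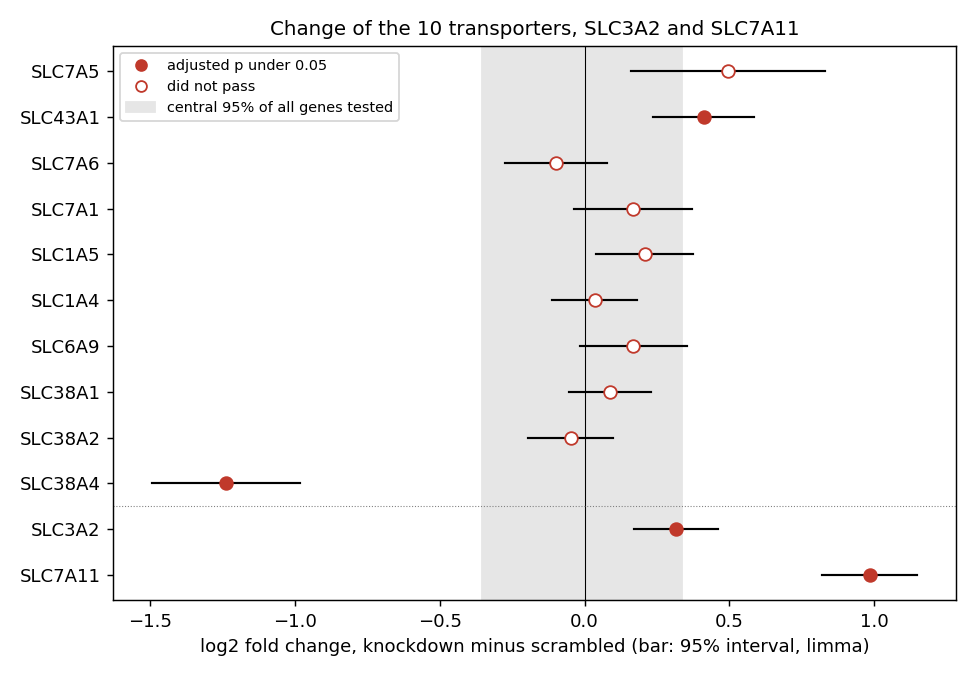
Log2 fold change, knockdown minus scrambled, of the 10 transporters and, below the dotted line, of SLC3A2 and SLC7A11, with 95% intervals from limma. Filled points passed the adjusted p threshold, and the grey band holds the central 95% of all genes, from −0.35 to 0.34; SLC38A4, SLC43A1, SLC7A5 and SLC7A11 lie outside it.

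Of the carriers of large neutral amino acids, SLC43A1 rose, while SLC7A5 and SLC7A6 did not pass. SLC43A1 (LAT3) is a facilitated carrier of leucine and other branched-chain amino acids. It read 9.50, 9.40 and 9.30 on the knockdown arrays against 8.90, 9.05 and 9.01 on the scrambled arrays. Each knockdown array lay above each scrambled array. SLC43A1 rose by 0.41 ± 0.08 log2 units (SE), or 1.33-fold, with a 95% interval of 0.24 to 0.59 (limma, adjusted p = 0.0249). The call was lost without knockdown replicate 1, 2 or 3 and without scrambled replicate 1 or 2 (adjusted p = 0.109, 0.110, 0.0573, 0.0526 and 0.0723), and it held without scrambled replicate 3 (adjusted p = 0.0326).

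SLC7A5 (LAT1) is the transport subunit of the main leucine and tryptophan exchanger of dividing cells. It read 10.68, 10.58 and 10.51 in knockdown cells against 9.80, 10.02 and 10.46 in scrambled cells. The groups did not overlap, but scrambled replicate 3 lay just below the lowest knockdown array. SLC7A5 differed by 0.50 ± 0.15 log2 units (SE), or 1.41-fold, which did not pass (95% interval 0.16 to 0.83; limma, adjusted p = 0.113). Without scrambled replicate 3 it was 0.68 and passed (adjusted p = 0.00793), as did SLC43A1 and SLC38A4. Without scrambled replicate 1 it was 0.35 and did not pass (adjusted p = 0.161). The spread of SLC7A5 was 0.08 in knockdown cells and 0.34 in scrambled cells (SD, n = 3 each).

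SLC7A6 is the y+L exchanger that releases arginine from cells in return for glutamine and sodium. Its level was 9.27, 9.42 and 9.34 in knockdown cells and 9.36, 9.40 and 9.56 in scrambled cells, which overlap. Its log2 fold change was −0.10 ± 0.08 (limma, adjusted p = 0.570), with a 95% interval of −0.27 to 0.08. The change of SLC7A5 exceeded that of SLC7A6 by 0.59 ± 0.16 (SE over arrays), with an exact permutation p of 0.1, or 0.167 adjusted over the 5 pairs of related transporters compared. The change of SLC43A1 minus that of SLC7A5 was −0.08 ± 0.17 (exact permutation p = 0.7, adjusted p = 0.7).

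Both SLC7A5 and SLC7A6 reach the cell surface only as a disulfide-linked pair with the heavy chain SLC3A2 (CD98), which also pairs with the cystine exchanger SLC7A11. SLC3A2 read 10.04, 10.05 and 9.97 in knockdown cells against 9.66, 9.70 and 9.76 in scrambled cells. It rose by 0.31 ± 0.06 log2 units (SE), or 1.24-fold (limma, adjusted p = 0.0346). SLC7A11 read 8.48, 8.59 and 8.57 in knockdown cells against 7.59, 7.64 and 7.46 in scrambled cells, and rose by 0.98 ± 0.07 (limma, adjusted p = 0.000834). For both genes the knockdown arrays lay above the scrambled arrays without overlap. The call of SLC7A11 held without each array in turn, with adjusted p from 0.00145 to 0.0118. That of SLC3A2 held only without scrambled replicate 3 (adjusted p = 0.0261), and its adjusted p was 0.0675 to 0.148 without each of the other 5 arrays, with log2 fold changes from 0.29 to 0.34.

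The promoters of SLC7A5, SLC43A1 and SLC38A4 are shown because these genes had the largest absolute fold changes of the 10, with any E-box, the letters CACGTG, in capitals. Promoter windows come from RefSeq (build GRCh38.p14) and run from 250 bases before to 50 bases after a transcript start. All 10 transporters matched by symbol, with 15 windows in all. The 250 upstream bases of SLC7A5, SLC43A1 and SLC38A4 are printed 5′ to 3′ on the minus strand.
SLC7A5 chr16:87869508-87869757: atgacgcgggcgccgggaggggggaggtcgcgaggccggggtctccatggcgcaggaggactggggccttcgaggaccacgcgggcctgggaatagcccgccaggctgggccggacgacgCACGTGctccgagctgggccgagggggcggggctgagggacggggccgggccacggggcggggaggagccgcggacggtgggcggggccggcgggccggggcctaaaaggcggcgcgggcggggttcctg
SLC43A1 chr11:57515703-57515952: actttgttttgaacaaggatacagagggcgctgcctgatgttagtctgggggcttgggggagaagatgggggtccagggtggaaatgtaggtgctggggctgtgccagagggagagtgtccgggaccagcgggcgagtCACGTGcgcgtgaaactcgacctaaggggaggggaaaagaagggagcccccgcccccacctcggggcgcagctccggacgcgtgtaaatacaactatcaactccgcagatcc
SLC38A4 chr12:46825998-46826247: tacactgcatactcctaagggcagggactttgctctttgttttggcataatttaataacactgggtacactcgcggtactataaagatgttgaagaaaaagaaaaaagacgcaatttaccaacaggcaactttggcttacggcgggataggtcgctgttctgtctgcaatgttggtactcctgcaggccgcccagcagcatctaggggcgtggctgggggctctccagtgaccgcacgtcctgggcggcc
The first base of the E-box lies 130 bases before the start in SLC7A5 and 112 before the start of the window printed for SLC43A1. The window at the other start of SLC43A1 and the SLC38A4 bases printed hold none. E-boxes are described for these genes alone, so nothing is read from which of them hold one. The pattern reads the same on both strands. It was found in 7.26% of the 35116 windows of all genes. A match describes the letters and shows no binding. The SLC7A5 window is rich in G and C, at 80.3%, percentile 97.9 of all windows, while those of SLC43A1 held 61.7% and 64.7% and that of SLC38A4 55.0%, beside a median of 58.7%.

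SLC7A1 (CAT1) is the main sodium-independent importer of arginine and lysine. It read 10.00, 9.98 and 9.92 in knockdown cells and 9.61, 9.83 and 9.95 in scrambled cells. The groups overlapped through scrambled replicate 3, which lay above knockdown replicate 3. The difference of 0.17 ± 0.09 log2 units (SE; 95% interval −0.04 to 0.37) did not pass (limma, adjusted p = 0.382). Without scrambled replicate 3 it was 0.24 (adjusted p = 0.150), and without scrambled replicate 1 it was 0.07 (adjusted p = 0.645).

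SLC1A5 (ASCT2), the sodium-dependent exchanger that brings glutamine into proliferating cells, read 10.33, 10.29 and 10.28 in knockdown cells against 10.00, 10.07 and 10.22 in scrambled cells. The knockdown arrays lay above the scrambled arrays, again with scrambled replicate 3 nearest to them. The difference of 0.21 ± 0.07 log2 units (SE; 95% interval 0.04 to 0.38) did not pass (limma, adjusted p = 0.182). Without scrambled replicate 3 it was 0.27 (adjusted p = 0.0533). SLC1A5 is the only one of the 10 with a second probe set of its own, which is dimmer. That probe set had means of 6.37 ± 0.12 in knockdown cells and 6.37 ± 0.16 in scrambled cells (SD, n = 3 each), a log2 fold change of 0.01 ± 0.10 (SE; limma over single-symbol probe sets, adjusted p = 0.974). The 2 probe sets of SLC1A5 thus gave different values.

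Its relative SLC1A4 (ASCT1) exchanges alanine, serine, cysteine and threonine. It read 9.93, 9.92 and 9.82 in knockdown cells and 9.89, 9.86 and 9.82 in scrambled cells. The groups overlapped, and the log2 fold change was 0.04 ± 0.06 (SE; limma, adjusted p = 0.826), with a 95% interval of −0.11 to 0.18. The change of SLC1A5 minus that of SLC1A4 was 0.17 ± 0.09 (SE), with an exact permutation p of 0.3, or 0.375 adjusted over the 5 pairs. SLC6A9 (GLYT1), a sodium- and chloride-coupled glycine importer, read 7.36, 7.21 and 7.13 in knockdown cells and 7.01, 7.16 and 7.02 in scrambled cells. Knockdown replicate 3 lay below scrambled replicate 2, so the groups overlapped, and the log2 fold change of 0.17 ± 0.08 (SE) did not pass (limma, adjusted p = 0.325). Without knockdown replicate 1 it was 0.10 (adjusted p = 0.639).

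The largest change among the 10 was that of SLC38A4, a sodium-coupled carrier of the SLC38 family. SLC38A4 (SNAT4), a carrier of small neutral and some cationic amino acids best known from liver and placenta, read 5.10, 4.71 and 4.93 in knockdown cells against 6.15, 5.996 and 6.31 in scrambled cells. The lowest scrambled array lay well above the highest knockdown array. SLC38A4 fell by 1.24 ± 0.11 log2 units (SE), or 2.36-fold, with a 95% interval of −1.49 to −0.98 (limma, adjusted p = 0.0017). Of all 18404 genes, 2 had a log2 fold change this low or lower, SLC38A4 included. The call held without each array in turn, with log2 fold changes from −1.33 to −1.14 and adjusted p from 0.0033 to 0.0126. The mean level of this probe set over the 6 arrays was at percentile 36.7 of all probe sets, in a range where RMA can compress fold changes. Whether its knockdown mean of 4.91 lay above background cannot be read from the deposited values. Fewer cells with the transcript and less transcript per cell cannot be told apart in these bulk samples.

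SLC38A1 (SNAT1) and SLC38A2 (SNAT2) are the glutamine and alanine carriers of system A that many cell types use. SLC38A1 read 12.03, 12.07 and 12.05 in knockdown cells against 12.003, 11.90 and 11.98 in scrambled cells, without overlap. The difference was 0.09 ± 0.06 log2 units (SE; 95% interval −0.05 to 0.23; limma, adjusted p = 0.522). SLC38A2, whose mRNA is raised when amino acids are scarce, read 11.07, 11.13 and 11.02 in knockdown cells and 11.17, 11.08 and 11.11 in scrambled cells, with a log2 fold change of −0.05 ± 0.06 and a 95% interval of −0.19 to 0.10 (limma, adjusted p = 0.764). The change of SLC38A4 minus that of SLC38A1 was −1.33 ± 0.14, and minus that of SLC38A2 it was −1.19 ± 0.16 (SE over arrays). Both differences separated the arrays without overlap, with an exact permutation p of 0.1, or 0.167 adjusted over the 5 pairs.

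SLC38A1, SLC38A2 and SLC38A4 follow each other on chromosome 12 in the RefSeq gene order. The 4 protein-coding genes on either side were all measured, and none of these 8 passed. The nearest on the far side of SLC38A4 were AMIGO2 and PCED1B. AMIGO2, a neuronal adhesion protein, had a log2 fold change of 0.11 ± 0.08 (SE; limma, adjusted p = 0.510). PCED1B read 6.32, 6.17 and 6.17 in knockdown cells against 5.88, 5.71 and 6.04 in scrambled cells, a log2 fold change of 0.35 ± 0.09 (limma, adjusted p = 0.0828). On the side of SLC38A1, SCAF11 had 0.09 ± 0.07 (limma, adjusted p = 0.527) and ARID2 −0.11 ± 0.09 (limma, adjusted p = 0.575). SLC38A4 was the only gene of these 11 past the threshold.

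**Figure D3:**
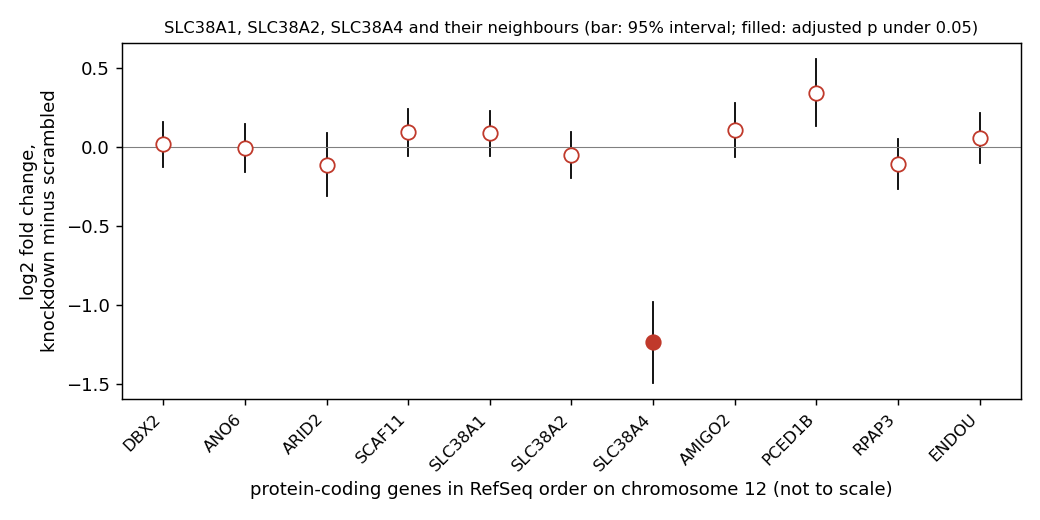
Log2 fold change, knockdown minus scrambled, of the 3 SLC38 genes on chromosome 12 and the 4 protein-coding genes on either side, in RefSeq order and not to scale, with 95% intervals from limma. SLC38A4 stands at −1.24, while the other 10 genes lie between −0.11 and 0.35.

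Beside the shares of all genes, the place of scrambled replicate 3 and the spread are given here for the 10 transporters. Scrambled replicate 3 lay above both other scrambled arrays for 5 of them, SLC1A5, SLC7A1, SLC7A5, SLC7A6 and SLC38A4, and below both for SLC1A4, beside 41.2% and 37.2% of all genes. The SD was larger in scrambled cells for 5 of the 10, beside 62.1% of all genes. Without scrambled replicate 3 the fold changes of SLC7A5, SLC1A5 and SLC7A1 were larger, that of SLC38A4 was −1.16 (adjusted p = 0.0033) and that of SLC7A6 was −0.04 (adjusted p = 0.839). The array's part in the values with all 6 arrays was not tested beyond leaving it out.

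**Figure D4:**
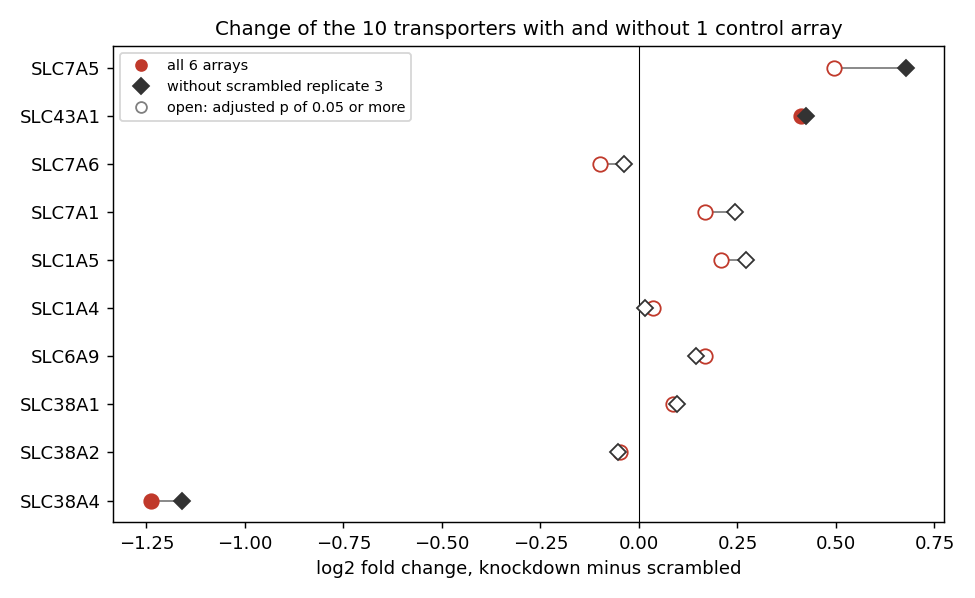
Log2 fold change, knockdown minus scrambled, of the 10 transporters from all 6 arrays (red circles) and without scrambled replicate 3 (dark diamonds), filled where the adjusted p was under 0.05. SLC7A5 moves furthest, with 0.68 without that array beside 0.50 with it, and becomes filled; the others keep their side of the threshold.

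A C/EBP-ATF response element, searched as TGATGNAA on both strands, was found in 4 of the 15 windows, in 4 transporters, beside 3.62% of all windows. The 4 sites are shown with 30 bases each, with the match in capitals, because many of the transporter genes are known ATF4 targets. The pattern was chosen for that reason, so nothing is read from its share among the 10. The SLC1A4 site is on the plus strand of the genome and matches on the opposite strand, so that its capitals are the reverse complement of the pattern, and the other 3 windows are on the minus strand.
SLC1A4 chr2:64989381-64989410: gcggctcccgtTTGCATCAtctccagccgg
SLC1A5 chr19:46784893-46784922: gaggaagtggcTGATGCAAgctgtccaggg
SLC7A1 chr13:29595663-29595692: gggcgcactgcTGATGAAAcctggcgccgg
SLC38A1 chr12:46266502-46266531: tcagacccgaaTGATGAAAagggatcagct
Counted from the transcript start of the window that holds them, the matches begin 7 bases before it in SLC1A4 and 97 before it in SLC1A5. They begin 8 bases after it in SLC7A1 and 4 before it in SLC38A1. SLC1A4, SLC1A5 and SLC38A1 have further windows at other starts that hold no match. None of these 4 genes passed in limma, with log2 fold changes from 0.04 to 0.21, and neither SLC38A4 nor SLC43A1 held a match in these windows. Outside the 10, SLC3A2, which rose by 0.31, held a match on the opposite strand. It begins 38 bases after the start of its window, and the windows at other starts of SLC3A2 hold none. No member window held the cyclic AMP response element TGACGTCA (1.85% of all windows). The AP-1 letters TGACTCA were found in SLC38A1 (4.95% of all windows). No matches of different patterns overlapped in the windows of the 10.

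Of the other plasma membrane amino acid transporters, 31 of 31 were measured, SLC3A2 and SLC7A11 rose and 29 did not pass, or 6.45% called beside 3.61% over all genes. Their median log2 fold change was 0.02. The 29 included SLC7A7, which pairs with SLC3A2, SLC7A8, the second light chain of system L, and SLC43A2, a relative of SLC43A1, at 0.07, 0.01 and 0.02 (limma, adjusted p = 0.826, 0.945 and 0.947). SLC38A5, a glutamine carrier of system N, read −0.20 (adjusted p = 0.557) and was at 0.00 without scrambled replicate 3. Of 15 lysosomal and vesicular transporters 0 passed in limma, and 1 had an unadjusted p under 0.05, as had 18.2% of all genes. The smallest p values were those of SLC15A4, a lysosomal histidine and peptide carrier, at 0.23 ± 0.09 (SE; limma, adjusted p = 0.222), and of its relative SLC15A3 at 0.14 ± 0.06 (adjusted p = 0.289).

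Of 12 mitochondrial amino acid carriers, SFXN3 rose and 11 did not pass, or 8.33% called beside 3.61% over all genes. SFXN3, of the sideroflexin family of serine carriers, read 7.52, 7.57 and 7.48 in knockdown cells against 7.09, 7.18 and 7.05 in scrambled cells, and rose by 0.42 ± 0.07 log2 units (SE; limma, adjusted p = 0.0133). The call was lost without knockdown replicate 1, 2 or 3 (adjusted p = 0.0636, 0.0781 and 0.0567). Its relative SFXN2 read 7.85, 7.87 and 7.80 in knockdown cells against 8.01, 8.33 and 8.86 in scrambled cells. The fold change of SFXN2 was −0.56 ± 0.18 with all arrays (limma, adjusted p = 0.134) and −0.33 without scrambled replicate 3 (adjusted p = 0.108). The list's median log2 fold change was −0.08.

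Of 42 genes of amino acid sensing, of the GCN2 and mTORC1 pathways and of kinases related to GCN2, 38 were measured. Among these, 3 rose and 35 did not pass, or 7.89% called beside 3.61% over all genes. The list's median log2 fold change was 0.004. ATF4, the transcription factor translated when GCN2 is active, read 10.45, 10.44 and 10.42 in knockdown cells against 10.09, 10.10 and 10.17 in scrambled cells and rose by 0.31 ± 0.06 (SE; limma, adjusted p = 0.0291). The ATF4 values are those of the brighter of its 2 probe sets, and the other is not reported here. TSC1, a subunit of the complex that restrains mTORC1, rose by 0.45 ± 0.07 (limma, adjusted p = 0.0168). RRAGC, a Rag GTPase that brings mTORC1 to the lysosome, rose by 0.30 ± 0.07 (limma, adjusted p = 0.0421). The call of TSC1 was lost without knockdown replicate 2 or 3 or scrambled replicate 2 (adjusted p = 0.0874, 0.0837 and 0.0681). Those of ATF4 and RRAGC held only without scrambled replicate 3 (adjusted p = 0.0223 and 0.0499), and without each of the other 5 arrays the adjusted p was 0.0583 to 0.128 for ATF4 and 0.0526 to 0.175 for RRAGC. EIF2AK4, which encodes GCN2 itself, was at 0.00 ± 0.06 (limma, adjusted p = 0.997).

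Of 31 enzymes that use the imported amino acids, 25 were measured, ASS1 rose and 24 did not pass, or 4% called beside 3.61% over all genes, with a median log2 fold change of 0.02. ASS1, which makes argininosuccinate for arginine synthesis, read 8.41, 8.46 and 8.13 in knockdown cells against 7.77, 7.80 and 7.57 in scrambled cells and rose by 0.62 ± 0.10 log2 units (SE; limma, adjusted p = 0.0163). The call was lost without knockdown replicate 1 or 2 or scrambled replicate 2 (adjusted p = 0.0839, 0.0847 and 0.0514). ARG2, a mitochondrial arginase, read 7.08, 7.05 and 6.92 in knockdown cells against 6.80, 6.71 and 6.73 in scrambled cells, a log2 fold change of 0.27 ± 0.07 that did not pass (limma, adjusted p = 0.0747). In both genes the groups did not overlap.

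**Figure D5:**
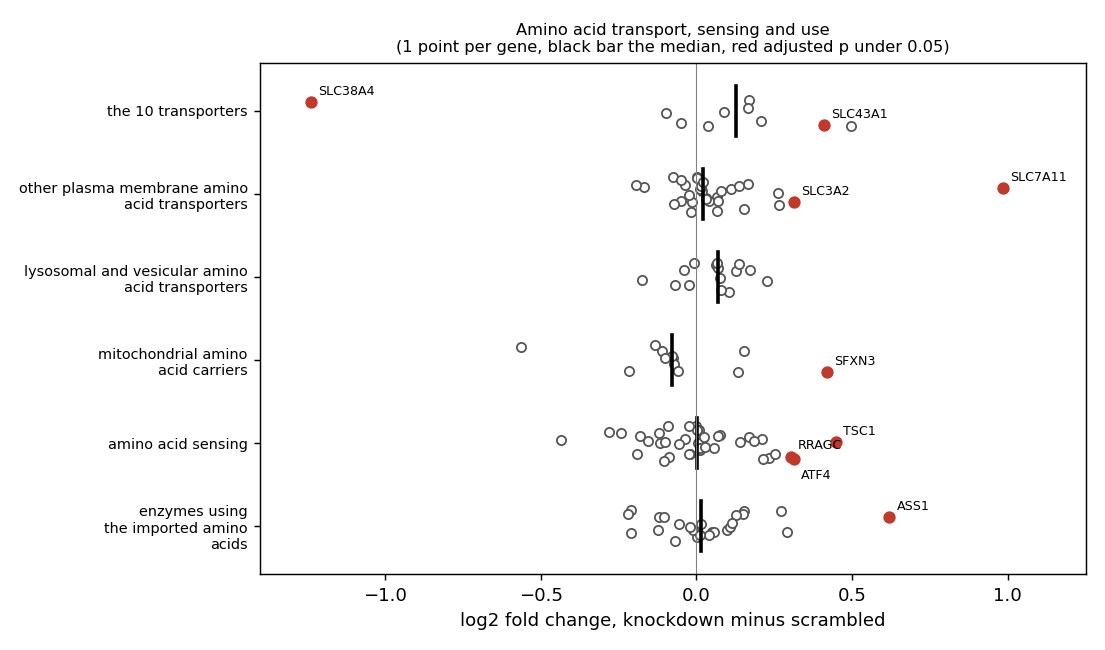
Log2 fold change, knockdown minus scrambled, of the 10 transporters and of the genes of 5 further lists of amino acid transport, sensing and use (1 point per gene, black bar the list's median, red for an adjusted p under 0.05). The medians lie between −0.08 and 0.13, and SLC38A4 at −1.24 and SLC7A11 at 0.98 mark the ends.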

How the data were processed

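Total RNA from 6 MEC-1 samples was labelled with biotin and hybridised to 1 Affymetrix whole-transcript array each, per the labels. The authors made the deposited log2 values with RMA, per the submitters' processing notes, and for its version and probe library the sources used here give nothing. The 32321 deposited probe sets ranged from 2.2 to 14.3 and were used as deposited. Probe sets were named through the platform annotation: 19158 had 1 symbol, 1388 several and 11775 were not listed and stay unnamed. For the 637 genes with several probe sets the one with the highest mean was kept, leaving 18404 genes. No dim probe set was removed, and no batch information was used since the sources give none.

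Groups came from the titles. The test was limma's moderated test (version 3.58.1, R 4.3.3, two-sided, no covariate), knockdown minus scrambled, with Benjamini-Hochberg adjustment over all genes and a threshold of 0.05. The fit was tested on simulated data. The transporters, the lists and the alternatives were chosen with earlier results of these data known. In the 5 pathway lists the text names each gene that passed, up to 6 per list. Where fewer than 2 passed it also names the 2 with the smallest unadjusted p. SLC3A2 and SLC7A11 were named in the plan of the tests, which was also made with earlier results of these data known. The motifs, the 8 neighbouring genes, the 5 pairs and SLC7A7, SLC7A8, SLC43A2, SLC38A5, EIF2AK4, ITGAM and EPCAM were chosen afterwards. E-box matches of the other transporters are not reported here. The number of arrays limits the precision. Alternatives were another quantile normalisation, median centring, brighter genes only, an intensity trend, a robust prior, array weights, other choices of probe sets, a replicate block, each array left out, other thresholds, another probe set and an exact permutation test.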

Additional observations from a re-analysis of the deposited data

How the results depend on the processing

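Over all genes 665 passed, 354 higher and 311 lower in the knockdown. Of 150 recomputed fold changes of the 10 transporters, 0 changed sign, 140 kept their side of the threshold, 7 were no longer past it and 3 came past it; the 7 concern SLC43A1, and the 3 concern SLC7A5 and SLC1A5. The exact permutation test, which cannot go below 0.1 here, was not counted. The intensity trend, the robust prior, the replicate block, brighter genes only and the wider sets of probe sets leave each fold change as it was. No sign could change in those settings, which bear only on the adjusted p. Array weights gave scrambled replicate 3 a weight of 0.2496 and scrambled replicate 2 one of 6.125. With them 3511 of all 18404 genes passed in limma, and 4 transporters, with SLC7A5 (adjusted p = 0.00145) and SLC1A5 (adjusted p = 0.00981) added. The lists then had 4 of 31 plasma membrane, 1 of 15 lysosomal, 3 of 12 mitochondrial, 9 of 38 sensing and 7 of 25 enzyme genes. Since so many more genes passed over all genes, nothing is read from these list counts. When all deposited probe sets were tested, 165 passed, with 1 transporter (SLC43A1 at adjusted p = 0.0919), 1 plasma membrane gene and 0 mitochondrial, sensing or enzyme genes. Arrays centred on their median left 2 transporters without overlap, where 24.5% of all genes were separated, against 5 and 24.8% uncentred, with 1 plasma membrane and 1 sensing gene called, and 275 genes higher and 316 lower over all genes; neither scaling moved the median of all genes by over 0.1. With brighter genes only, SLC38A4 was not tested and 1 transporter passed. At an adjusted p under 0.1, 1207 genes and 2 enzyme genes passed. In a separate setting, a minimum of 0.5 on the absolute log2 fold change was required. There 237 genes passed, with 1 transporter, 1 plasma membrane and 0 mitochondrial or sensing genes. The exact permutation p of UGT2B17, at −0.64, was 0.1, the smallest possible.

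Whether the replicate numbers pair the samples is not known. The deviations of same-numbered arrays from their group means correlated at −0.0813, −0.00837 and −0.0803, which with 3 arrays per group cannot decide it. With the replicate number as a block, 367 genes passed, with 1 transporter (SLC43A1 at adjusted p = 0.0672), 1 plasma membrane gene and 0 sensing genes. Leaving out each array in turn gave 152 to 759 genes, 1 to 3 transporters, 5 to 8 transporters without overlap (beside 32.7% to 38.4% of all genes), 1 to 2 plasma membrane, 0 to 2 mitochondrial, 0 to 3 sensing and 0 to 2 enzyme genes. The 759 came without scrambled replicate 3 and the 152 without knockdown replicate 2; 579 and 150 of these were among the 665. Such fits have fewer samples, and the cause of the other changes was not tested.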
